A study of Drosophila melanogaster with 15 samples.

Results

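The cuticle protein and Osiris genes of Drosophila melanogaster were described here from the authors' map of transcription units, the stretches of the genome over which nascent transcription was to be read. Members were the genes of the map whose symbol begins with Cpr and a digit, Twdl, Lcp, Ccp84A, Acp65A, or Osi and a digit, or is Pcp. They numbered 146 of 17698 genes and stood in 146 of 15991 units, so that no unit held more than 1 member. The series is an mNET-seq study, which sequences RNA held by engaged RNA polymerase, of stage 15 embryos. Its 15 samples form 4 groups: female control RNAi (4 samples), female MOF (4), male control RNAi (3, numbered 2, 3 and 4) and male MOF (4), where MOF stands for maternal depletion of mof by a UAS-mof RNAi transgene. The driver of the transgene is not given in the sources used here, and 6000 whole embryos went into each preparation. The map belongs to no sample and holds positions only. Nascent coverage was not used here. Sequencing depth is therefore unknown, no level of any member was measured, and the groups were not compared.

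The insect cuticle is a layer of chitin and protein that the epidermis and the tracheal cells secrete. Most of its proteins belong to the CPR family, which carries the chitin-binding Rebers and Riddiford domain. The Tweedle proteins are another family of structural cuticle proteins, known from dominant mutants with a short, stout body. Osiris genes form an insect-specific family of predicted membrane proteins, most of which lie together in the region of the Triplo-lethal locus. The late embryo lays down the first larval cuticle, and many of these genes are active for short times at one moult. Here CPR covers the prefixes Cpr (70 genes), Lcp (17, named as larval cuticle proteins), Ccp84A (7), Pcp (1, a pupal cuticle protein) and Acp65A (1, an adult cuticle protein), or 96 genes in all. Tweedle held 26 genes and Osiris 24. These are counts by symbol, so a gene of a family that stands under another symbol is left out. In the RefSeq gene table, 143 members are protein-coding and 3 are pseudogenes (Lcp1Psi, Lcp65APsi and TwdlU).

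Most members lay in clusters. Units of a family were joined where the gap between them was at most 20 kb on either strand, which gave 19 clusters that held 115 of the 146 units (78.8%). CPR had 14 clusters (73 of 96 units, 76%), Tweedle 4 (22 of 26 units, 84.6%) and Osiris 1 (20 of 24 units, 83.3%). The 3 clusters of 10 or more units held 51 units: the Osiris cluster with 20, the CPR cluster at 65A with 19 and the Tweedle cluster from TwdlM to TwdlD with 12. Of the remaining clusters, 1 had 8 units, 2 had 7, 1 had 5, 4 had 4, 5 had 3 and 3 had 2. The largest gap inside a cluster was 11812 bp, between Osi6 and Osi7, followed by 10516 bp between Cpr49Ad and Cpr49Ae. The smallest gap left outside was 23839 bp, between Osi1 and Osi24, and the next were 51491 bp between TwdlD and TwdlQ and 63675 bp between Cpr11A and Cpr11B. Between 11812 and 23839 bp the choice of the joining distance therefore made no difference. CPR symbols carry a cytological band, and in each of the 13 clusters with such symbols all members carried a single band. A band is itself a map position, so this is not independent of the clustering.

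The families were spread unevenly over the chromosome arms. The arm 3R held 55 members (37.7%, against 24% of all units of the main arms), 3L held 47 (32.2% against 19.7%), 2R held 28 (19.2% against 20.4%), 2L held 8 (5.48% against 20%) and X held 8 (5.48% against 15.1%). On 3R stood 23 of the 24 Osiris units and 20 of the 26 Tweedle units, whereas 3L held CPR genes alone. No member lay on chromosome 4 or Y, and none of the 8 members on 2L was clustered. Units of a cluster are neighbours and not independent, so these shares are descriptions of a single annotation and no test was made of them, here or below.

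The Osiris cluster spanned 142.6 kb of 3R (6198811 to 6341424). It was ordered almost as its members are numbered, from Osi24 and Osi2 to Osi20. On the plus strand lay 18 of its 20 units, in runs of 3 (Osi24 to Osi3), 6 (Osi5 to Osi10) and 9 (Osi12 to Osi20). The exceptions, Osi4 and Osi11, each stood alone on the minus strand, and each lay tail to tail with the unit before it. The gap was 118 bp from Osi3 to Osi4 and 195 bp from Osi10 to Osi11, while the gaps behind them were 5730 bp to Osi5 and 9773 bp to Osi12. The 15 gaps between units of the same strand ran from 1065 to 11812 bp with a median of 3491 bp. RefSeq lists Osi10 as a pair of genes, Osi10a and Osi10b, where the authors' map has 1 unit of 3420 bp. Member units filled 44.7% of the span.

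4 units of other genes, all protein-coding, interrupted the Osiris row at 2 places. CG15597 on the minus strand (739 bp) and CG15594 on the plus strand (2092 bp) stood between Osi12 and Osi13. CG46026 (2147 bp) and CG31560 (1023 bp), both on the plus strand, stood between Osi16 and Osi17. The 4 Osiris genes outside the row were Osi1, which lay 23839 bp before it on the same strand, Osi22 and Osi23 on 3R, and Osi21 on 2L. Osi23 is also known as gox, a gene of pore formation in the cuticle of olfactory bristles.

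The CPR cluster at 65A had the most units per kb of the 3 largest. Its 19 units, from Lcp65Ag3 to Cpr65Az, lay within 31.2 kb of 3L (6130386 to 6161589), or 1.64 kb per unit, against 1.83 kb per unit in the largest Tweedle cluster and 7.13 kb in the Osiris cluster. Its short units filled the least of the span, 35.9%, against 53.2% in the largest Tweedle cluster and 44.7% in the Osiris cluster. The left end was a run of 8 units on the minus strand: Lcp65Ag3, Cpr65Au, Lcp65Ag2, Lcp65Ag1, Lcp65Af, Lcp65Ae, Cpr65Av and Cpr65Aw. A run of 3 on the plus strand followed (Lcp65Ad, Lcp65Ac and Lcp65Ab2), and from there the strand changed often, with 7 switches in the whole cluster. Larval genes, the adult cuticle gene Acp65Aa and the Cpr65A genes were interleaved rather than set apart. The 11 Lcp65A units measured from 263 bp (the pseudogene Lcp65APsi) to 707 bp (Lcp65Ad), with a median of 575 bp.

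In the 65A cluster, genes that share a name up to a final digit stood in a repeated layout. Lcp65Ab2 (416 bp) on the plus strand faced Cpr65Ax1 (457 bp) on the minus strand, and Lcp65Ab1 (413 bp) faced Cpr65Ax2 (800 bp) in the same way, with Lcp65APsi between the pairs. The start of Lcp65Ab1 lay 2874 bp from that of Lcp65Ab2, and the start of Cpr65Ax2 lay 2870 bp from that of Cpr65Ax1. The spacing inside the pairs differed, at 441 bp for the first and 97 bp for the second, along with the length of the Cpr65Ax units. In the minus-strand run, Lcp65Ag3 and Lcp65Ag2 were each 604 bp long with starts 2604 bp apart and Cpr65Au between them, and Lcp65Ag1 (578 bp) began 1681 bp from Lcp65Ag2. Sequences of these genes were not used here, so how alike the copies are, and whether short nascent reads could be placed on 1 copy, was not tested. 2 units of other genes interrupted the cluster near its right end, between Acp65Aa and Cpr65Ay: the long non-coding RNA gene CR45421 (490 bp) and CG13297 (786 bp).

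**Figure D1:**
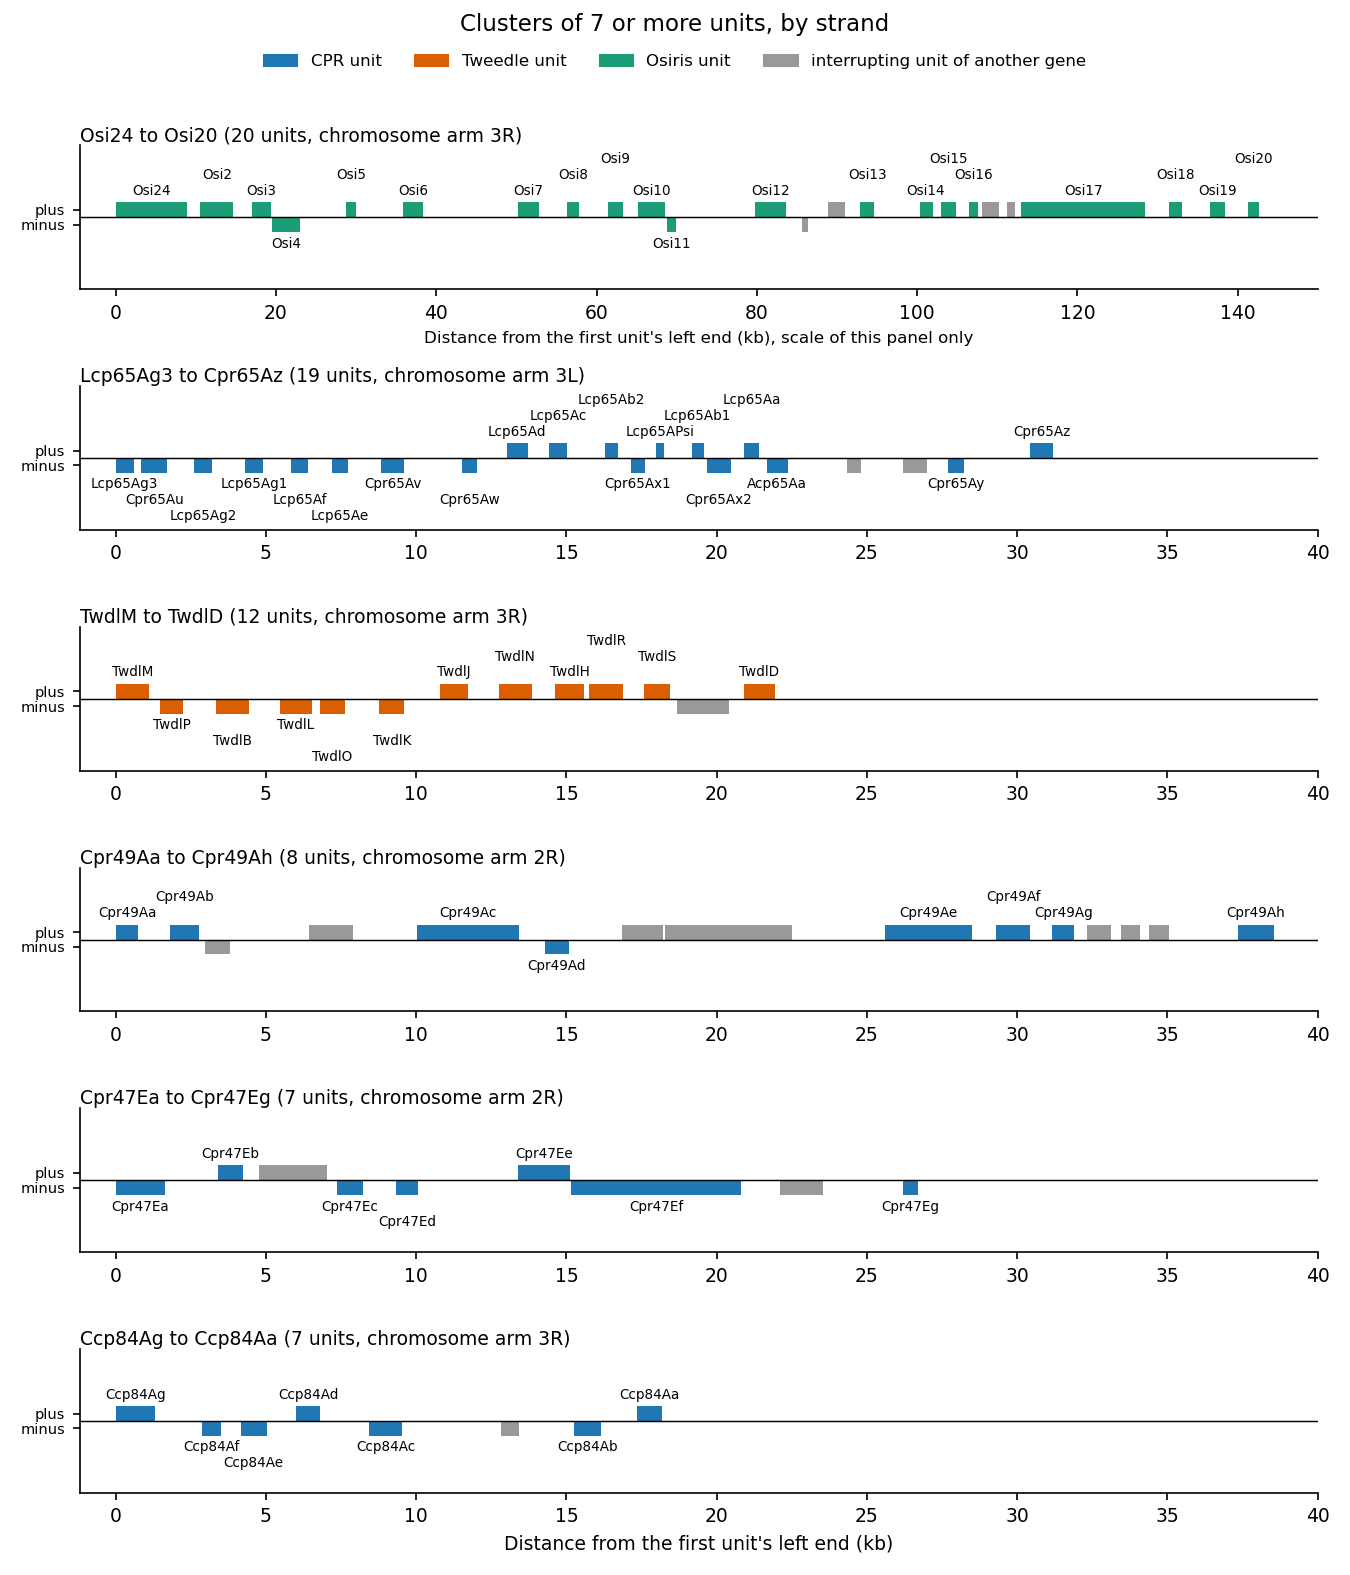
Positions of units in the 6 clusters of 7 or more units, in kb from the left end of each cluster, with plus-strand units above the line and minus-strand units below it. The Osiris panel has its own scale, and shows 18 of 20 units on the plus strand, whereas the 65A panel shows 8 minus-strand units followed by frequent strand changes.

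The largest Tweedle cluster formed 2 blocks of opposite strand. TwdlM stood first on the plus strand, 5 units from TwdlP to TwdlK followed on the minus strand, and 6 units from TwdlJ to TwdlD on the plus strand, all within 21.9 kb of 3R (26619118 to 26641054). The blocks were set back to back: the starts of TwdlK and TwdlJ lay 1194 bp apart. Its units were alike in size, from 757 bp (TwdlP) to 1114 bp (TwdlR), and TwdlH and TwdlR were the closest tandem neighbours of any cluster, with a gap of 170 bp. A single unit interrupted it, the long non-coding RNA gene CR46233 (1711 bp) between TwdlS and TwdlD. The cluster of TwdlU, TwdlF, TwdlG and TwdlV, also on 3R, spanned 12.2 kb and was interrupted by CG14644 (1150 bp) between TwdlG and TwdlV. The 4 Tweedle genes outside clusters were TwdlE (2L), Twdlbeta (2R), TwdlW and TwdlQ (3R).

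The middle-sized CPR clusters differed in strand order. In the larval cluster of 2R, Lcp1, Lcp1Psi and Lcp2 on the minus strand stood back to back with Lcp3 and Lcp4 on the plus strand, with the starts of Lcp2 and Lcp3 525 bp apart and no other unit within the 8.4 kb. The Ccp84A cluster (18.2 kb, 7 units) read the same from either end in strand order, with Ccp84Ag, Ccp84Ad and Ccp84Aa on the plus strand and the pairs Ccp84Af with Ccp84Ae and Ccp84Ac with Ccp84Ab on the minus strand. The non-coding gene pncr002:3R (605 bp) lay between Ccp84Ac and Ccp84Ab. Cpr47Ea to Cpr47Eg (26.7 kb, 7 units) had 4 strand switches. It held CG13223 between Cpr47Eb and Cpr47Ec, and the troponin C gene TpnC47D between Cpr47Ef and Cpr47Eg. In Cpr49Aa to Cpr49Ah (38.5 kb, 8 units), 7 units lay on the plus strand and Cpr49Ad on the minus strand. Cpr76Ba to Cpr76Bd (20.7 kb) had Cpr76Ba on the minus strand and 3 units on the plus strand, with no other unit among them.

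The clusters of 2 or 3 CPR units were mostly short. Cpr67Fa1, Cpr67Fa2 and Cpr67Fb lay in a row on the plus strand within 4.7 kb of 3L, and the starts of Cpr67Fa1 (711 bp) and Cpr67Fa2 (803 bp) were 1724 bp apart. Cpr72Ea, Cpr72Eb and Cpr72Ec also took 4.7 kb, with Cpr72Ec turned to face Cpr72Eb at a gap of 186 bp. Cpr65Ea, Cpr65Eb and Cpr65Ec took 7.8 kb, with Cpr65Ec alone on the plus strand. Cpr62Ba, Cpr62Bb and Cpr62Bc (17956 bp) and Cpr97Ea and Cpr97Eb (8.0 kb) lay on the minus strand throughout. None of these 5 clusters held a unit of another gene, whereas the remaining clusters of this size, Cpr50Ca with Cpr50Cb (35.3 kb) and Cpr78Ca to Cpr78Cc (9.3 kb), held 2 each. The 23 solitary CPR units were Cpr23B, Pcp, Cpr30B, Cpr30F, Cpr31A and Cpr35B on 2L, Cpr51A, Cpr56F, Cpr57A, Cpr60D and Lcp9 on 2R, Cpr66Cb, Cpr66D, Cpr67B, Cpr73D and Cpr78E on 3L, Cpr92A, Cpr92F and Cpr100A on 3R, and the 4 on X.

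By unit bounds, the cluster at 49A was interrupted most often between its members, by 7 protein-coding units at 3 places. CG13155 and CG8501 stood between Cpr49Ab and Cpr49Ac, the odorant receptor gene Or49a and CG30048 between Cpr49Ad and Cpr49Ae, and CG30050, CG33626 and CG33627 between Cpr49Ag and Cpr49Ah. Over all families, 11 of the 19 clusters had at least 1 unit of another gene, as judged by symbol, within their bounds, 31 such units in all. Of these, 26 held a protein-coding gene and 5 were non-coding. By unit bounds, 21 stood between members while 10 overlapped a member's unit on the opposite strand. Among the 10 are 7 opposite the unit that TwdlT shares with other genes. By the bounds of the genes themselves, these 7 stand between TwdlC and TwdlT. By family, 7 of 14 CPR clusters, 3 of 4 Tweedle clusters and the Osiris cluster were interrupted. Among the clusters of 4 or more units, 3 held no other unit wholly within their bounds: Lcp1 to Lcp4, Cpr76Ba to Cpr76Bd, and the Tweedle cluster on X. This count leaves out genes that share a member's unit and units that reach beyond the cluster. On X these are CG32568, in the unit of Twdlalpha, and goe, whose opposite-strand unit spans the cluster.

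Neighbouring units of a cluster lay mostly on the same strand. Of 96 neighbour pairs, 65 (67.7%) were tandem, 17 (17.7%) divergent, or back to back, and 14 (14.6%) convergent, or tail to tail, by the order of their left ends. One of the 14, Cpr64Ad with Cpr64Aa, is so only in name, since the Cpr64Aa unit lies inside the joint unit of Cpr64Ad. Of the 95 pairs that do not overlap, 68.4% were tandem, 17.9% divergent and 13.7% convergent. Among all 12954 neighbouring units of the main arms that do not overlap, 53.1% were tandem, 27.1% divergent and 19.8% convergent, and with overlapping neighbours included 43.4% of 15842 were tandem. The tandem share was 78.9% in Osiris (15 of 19), 77.8% in Tweedle (14 of 18) and 61% in CPR (36 of 59). On one strand throughout were 6 of the 19 clusters, the largest of them the 4 X-linked Tweedle units. Neighbours in a cluster were spaced wider than neighbouring units at large: the median gap was 1243 bp in clusters (1104 bp in CPR, 1064.5 bp in Tweedle and 3491 bp in Osiris), against 562 bp over all neighbouring units that do not overlap. It was 1280 bp over the 95 cluster pairs that do not overlap. In the 83 cluster pairs with no other unit between them the median gap was 1103 bp.

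Gaps depended on orientation. Among pairs that do not overlap, the 13 convergent pairs had a median gap of 383 bp, the 65 tandem pairs of 1551 bp and the 17 divergent pairs of 1691 bp, against 365, 675.5 and 506 bp over all neighbouring units that do not overlap. A gap under 500 bp was found in 9 of 13 convergent, 5 of 65 tandem and 2 of 17 divergent pairs. The same shares over all neighbouring units were not computed, and the median of all convergent pairs, 365 bp, itself lies under 500 bp. Whether these counts are particular to the clusters was therefore not tested. The 3 closest pairs without overlap were convergent: Cpr47Ee with Cpr47Ef (58 bp), Lcp65Ab1 with Cpr65Ax2 (97 bp) and Osi3 with Osi4 (118 bp). Divergent starts within 500 bp were rare, in 7 of 146 units (4.79%, against 24.3% of all units). In 4 of these 7 the partner was another member, namely Cpr65Ax1 with Lcp65APsi (366 bp from start to start) and Cpr65Ax2 with Lcp65Aa (447 bp). The other 3 were Cpr78E (444 bp from CR43977), TwdlU (460 bp from CG34305) and Lcp9 (489 bp from CG3594). None of the 24 Osiris units had such a partner.

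**Figure D2:**
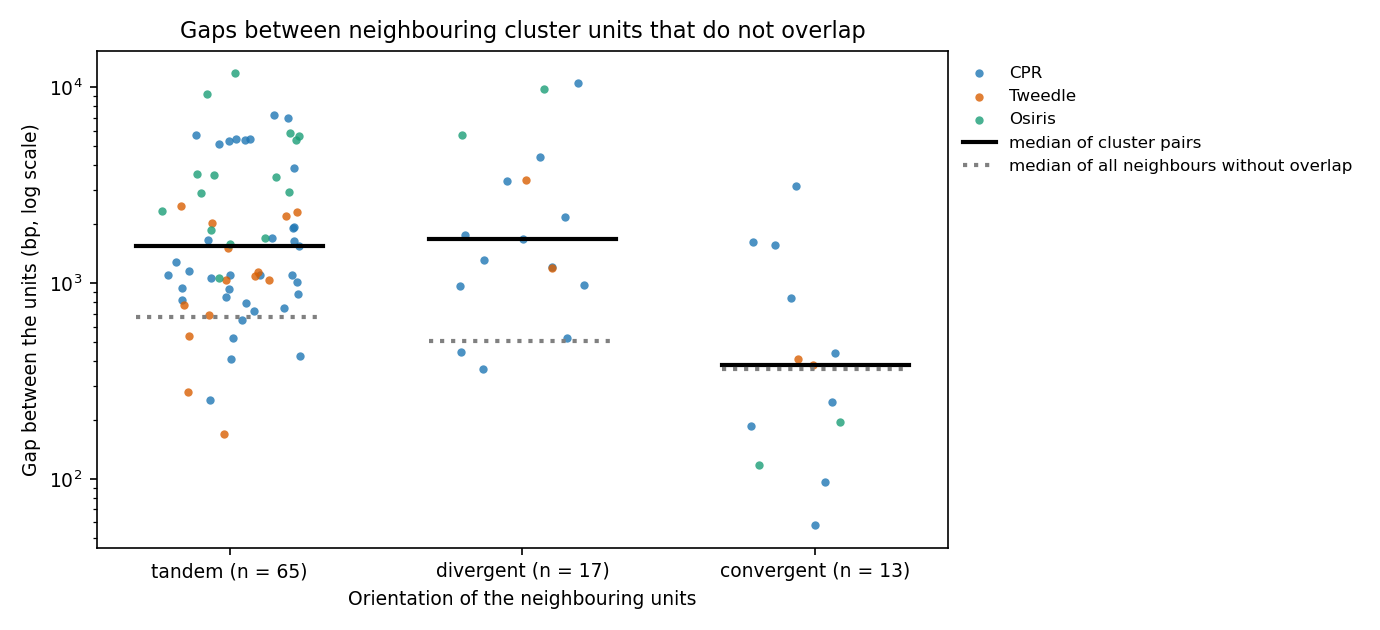
Gap between neighbouring units of a cluster that do not overlap, in bp on a log axis, for 65 tandem, 17 divergent and 13 convergent pairs, each point a pair coloured by family. Black bars are medians of the cluster pairs (1551, 1691 and 383 bp) and dotted bars those of all neighbouring units without overlap (675.5, 506 and 365 bp); the tandem and divergent black bars lie well above the dotted ones, and the convergent bars lie close together.

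Member units were short. The median length was 1109.5 bp (quartiles 777.25 and 1791.25 bp), against 1817 bp over all 15991 units and 2242 bp over the 13044 units with a protein-coding gene. The families differed in this: the median was 871.5 bp in CPR, 1090.5 bp in Tweedle and 1794 bp in Osiris. Within CPR it was 577 bp for the Lcp genes, 872 bp for Ccp84A and 1113 bp for Cpr. Units under 1000 bp made up 58.3% of CPR (56 of 96), 30.8% of Tweedle (8 of 26) and 4.17% of Osiris (1 of 24, Osi23 at 971 bp), against 28.4% of all units. Clustered and solitary members had medians of 1066 and 1265 bp. A single transcript was annotated for 111 of 146 units (76%), against 54.6% of all units, and the most was 6, for Cpr49Ac.

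Long units were few, with 11 over 5000 bp (7.53%, against 21.8% of all units). Of these, 3 were joint units, those of TwdlT (60956 bp), Cpr64Ad (30011 bp) and Cpr50Ca (17888 bp). The longest that held 1 gene were Cpr73D (18590 bp), Osi17 (15537 bp), Cpr50Cb (10455 bp) and Osi24 (8868 bp). Cpr62Ba (7655 bp), Cpr76Bc (6328 bp), Cpr47Ef (5661 bp) and Cpr76Bd (5547 bp) completed this group. Cpr73D overlapped an opposite-strand unit, that of Obp73a and Nc73EF, over 13329 bp. The shortest units were Lcp65APsi (263 bp) in CPR, TwdlZ (691 bp) in Tweedle and Osi23 in Osiris.

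**Figure D3:**
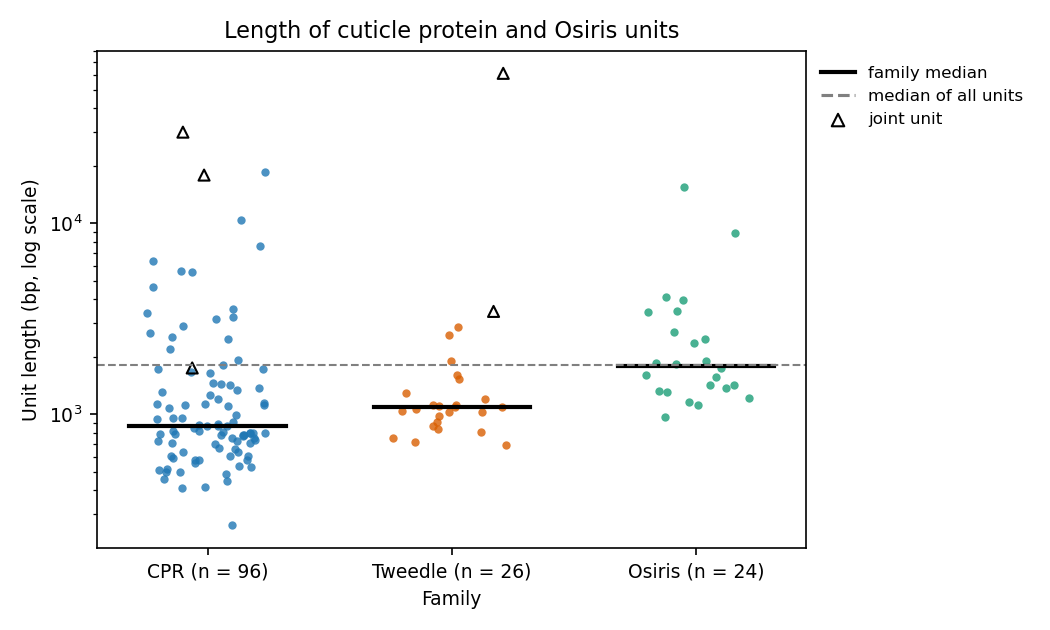
Length of each member unit in bp on a log axis, by family, with black bars for the family medians (871.5, 1090.5 and 1794 bp), a dashed line for the median of all units (1817 bp) and open triangles for the 5 joint units. CPR and Tweedle points lie mostly under the dashed line, and the Osiris median lies next to it.

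The 8 X-linked members all lay on the plus strand, which held 48.7% of all X units. X is the chromosome whose transcription MOF raises in males, and its share of members, 5.48% against 15.1% of all units of the main arms, was the same as that of 2L, which holds more of all units. No Osiris gene lay there. The 4 CPR genes were solitary: Cpr5C (5804677 to 5805344, 668 bp), Cpr11A (12486970 to 12489448, 2479 bp), Cpr11B (12553124 to 12554235, 1112 bp) and Cpr12A (13543643 to 13544907, 1265 bp). The 4 Tweedle genes formed the only X-linked cluster: TwdlX (1540 bp), TwdlY (1034 bp), TwdlZ (691 bp) and Twdlalpha, in 13.3 kb (16731091 to 16744365) with gaps of 2037 to 2316 bp.

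The whole X-linked Tweedle cluster lay inside a single unit of the opposite strand, that of goe (16727304 to 16751910, 24607 bp). Cpr11B also lay wholly inside an opposite-strand unit, that of hwt (51819 bp), so that 5 of the 8 X-linked members were nested in this way. The nested share of all X units was not computed, so whether this is many was not tested. Among all members 10 of 146 were nested in an opposite-strand unit (6.85%, against 11.1% of all units), and 20 (13.7%, against 39.1%) overlapped one at all. The autosomal cases were Cpr64Aa, Cpr64Ab and Cpr64Ac, Cpr67Fb inside the non-coding unit CR45171 (1098 bp), and Pcp inside the unit of ade3 (9276 bp), which encodes a purine synthesis enzyme and is also known as Gart. Per the labels, the tracks of the series include coverage summed over both strands. In a sum of that kind a nested member and its host cannot be told apart.

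Joint units held 5 members (3.42%, against 16.1% of all genes). Cpr57A shared its unit and both its bounds (1750 bp) with the odorant-binding protein gene Obp57d, and Cpr50Ca shared a unit with the non-coding gene CR43810 (502 bp), which begins 14080 bp inside it. For the other 3 the member's own start was hidden in the unit. Twdlalpha (1519 bp) began 1941 bp inside a unit of 3460 bp that opens with CG32568. Cpr64Ad (1036 bp) began 21386 bp inside the unit of CG43367. TwdlT (1785 bp) shared a unit with RYa-R, the receptor gene of RYamide peptides, and CG31077, and its start lay 52240 bp from that of the unit. A value read over these units covers the partner genes too. A value at the first base falls on the start of the partner for Twdlalpha, Cpr64Ad and TwdlT, and of the member for Cpr50Ca. For Cpr57A it falls on the start of both genes.

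2 clusters owed their form to such units. TwdlC lay 537 bp before the joint unit of TwdlT and counted as clustered with it, but 52777 bp before TwdlT itself. Opposite that unit lay all 7 protein-coding units within this cluster: CG6296, CG6295, CG17192, CG17191, CG6283, CG6277 and CG6271. At 64A the joint unit of CG43367 and Cpr64Ad (4193993 to 4224003 on 3L) covered the entire cluster. By their own bounds, Cpr64Aa (1341 bp), Cpr64Ab (661 bp) and Cpr64Ac (952 bp) on the minus strand came first and Cpr64Ad on the plus strand last, so the pair next to each other is Cpr64Ac and Cpr64Ad, back to back, and not Cpr64Ad and Cpr64Aa. CG15005 (3515 bp) and the antisense gene CR32252 (1031 bp) lay opposite the same joint unit. In the cluster of Cpr50Ca and Cpr50Cb, the peptidase gene S-Lap7 (2122 bp) lay opposite Cpr50Ca, and the long non-coding gene CR43811 (642 bp) stood between the members.

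**Figure D4:**
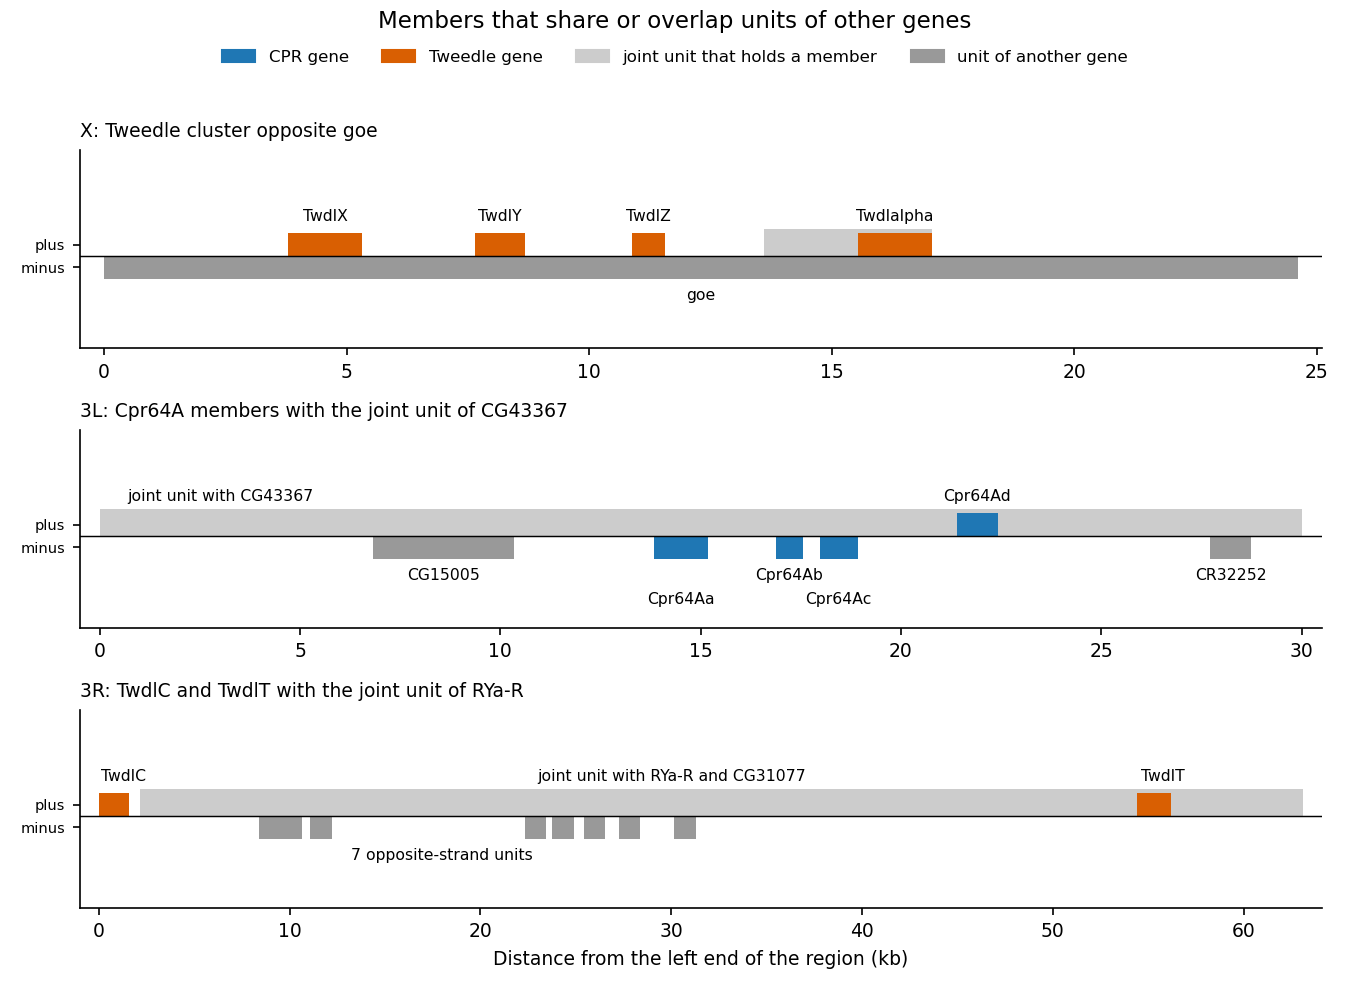
Members that share or overlap units of other genes, in kb from the left end of each region, plus strand above the line and minus strand below it; coloured boxes are the members by their own RefSeq bounds and pale boxes the joint units. The 4 Tweedle genes of X lie opposite goe (24607 bp), and Cpr64Ad and TwdlT begin 21386 and 52240 bp inside joint units of 30011 and 60956 bp.

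The positions of other cuticle genes were also read. Of 27 listed, 25 were matched by name in the map, and 3 of these lay within 20 kb of a member. The other names, obst-C and svb, were not matched, which does not show that these genes are absent from the map. The share of all units that lie so near a member was not computed, so whether 3 of 25 is few or many was not tested. Edg78E (1041 bp), an ecdysone-dependent pupal cuticle gene, stood inside the Cpr78C cluster between Cpr78Cb and Cpr78Cc, 64 bp from Cpr78Cb, and with CG43702 (389 bp) made up the 2 units that interrupt it. Edg84A (713 bp), of the same kind, lay 1570 bp from Ccp84Ag, just outside the Ccp84A cluster on the same strand. The chitin-binding gene obst-B (6265 bp) lay 15258 bp from Cpr31A. Neither Edg gene matches the symbol rule, so both count as other genes here, and Edg78E as an interrupting unit. This is a matter of symbol only: whether their proteins carry the CPR domain was not checked. The chitin synthase gene kkv (joint unit of 14774 bp), the deacetylase genes serp (7039 bp) and verm (5228 bp), knk (3300 bp) and the tyrosine hydroxylase gene ple (6170 bp) lay 151743 bp or more from any member. Nearer than these, but beyond 20 kb, lay Cht2 (68194 bp from Cpr62Ba), dyl (70000 bp from Cpr64Ad) and Gasp (72661 bp from Osi1). The 25 units had a median length of 4737 bp, from Edg91 (656 bp) to stw, listed as laccase2 (42352 bp), and 3 lay on X (y, rtv and obst-A).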

How the data were processed

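The authors deposited a table of transcription units for build dm6 (per the submitters' processing notes), written with rtracklayer 1.48.0 per the file headers. No source used here gives its annotation release or how genes were joined. The coverage tracks were not analysed here. Members were taken by symbol. Gene types, synonyms and gene bounds came from RefSeq's table for assembly Release 6 plus ISO1 MT, matched on the same chromosome (17610 of 17698 genes, 99.5%). All 146 members matched, 145 by symbol and Osi10 by synonym, and the 140 single-gene units matched by symbol had exactly the RefSeq bounds. Clusters were built by single linkage within a family. A cluster was interrupted where a unit without a member of the family lay wholly within its bounds. Promoter and protein sequences were not used here, so the planned counts of TATA motifs and of protein identity were not made. Python 3.11.15 and matplotlib 3.10.9 were used. Named genes were the members on X, in joint units or nested, the ends and strand order of large clusters, the extremes of length, the closest pairs, solitary Tweedle and Osiris genes, and interrupting units. Members, lists and rules were chosen with earlier results of these data known.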

Additional observations from a re-analysis of the deposited data

How the results depend on the processing

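The number of clusters (19) was 25, 21 and 19 with joining distances of 5, 10 and 50 kb, 20 with the 7 symbol prefixes as families and 18 with RefSeq gene bounds, where TwdlC and TwdlT part. At 5 kb the Osiris row falls into 4 clusters, the largest with 5 units (Osi7 to Osi11), and Osi5, Osi6, Osi12 and Osi13 become solitary. At 10 kb the row falls into 2 clusters, the larger with 14 units (Osi7 to Osi20). At 50 kb Osi1 joins it. The number of interrupted clusters (11) fell to 6 at 5 kb, where clusters split at the longer gaps that hold other units, and was 9 to 12 under the remaining settings. The share of clustered units ran from 71.9% to 79.5%, the same-strand share from 65% to 72.3%, and the median gap from 1094 to 1606.5 bp over the settings tried, which include leaving out the overlapping pair, a setting chosen after seeing the data. The median unit length ran from 1088 to 1112 bp, and 4 of the 5 members in joint units had a protein-coding partner. The planned settings of the TATA motif and of protein identity were not run. No paired analysis was possible because the map holds no value of any sample. Depth limits nothing here, since positions carry no counting error, but the starts are those of gene models and not sites measured in these embryos.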
